A study of Mus musculus with 11 samples.

Results

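The DNA damage response genes described here are 46 genes centred on Atm, taken by name from 8 repair and checkpoint pathways. A gene was measured if a row of the array table carried its symbol and no other, and where it had several such rows the one with the highest mean was used. Of the 46 genes 45 had such a row, out of 19937 genes in all. The exception, Rnf8, was not analysed here.

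In human T-cell prolymphocytic leukemia TCL1A is activated and ATM is often lost or mutated. ATM is the kinase that senses DNA double-strand breaks together with the MRE11-RAD50-NBN complex. It phosphorylates CHEK2, p53 and chromatin proteins, and so links a break to repair and to cell-cycle arrest or cell death. ATR and CHEK1 carry the corresponding signal from stalled replication forks, and breaks are then repaired by end joining or by homologous recombination. Base excision, mismatch, nucleotide excision and Fanconi anemia repair deal with other kinds of damage.

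Splenic T-cell RNA was measured on 11 whole-transcript arrays. The leukemias came from Lckpr-TCL1A+/- mice, in which the proximal Lck promoter drives human TCL1A in the T-lineage. They were sampled in a chronic phase (3 arrays, 30 to 70% tumor cells, average age 12 months) or an exponential phase (5 arrays, over 80% tumor cells in blood and over 90% in spleen, average age 15 months, lymphocyte doubling time of 12 days with an SEM of 0.8). Age-matched C57BL/6 wild-type mice gave 3 arrays, each of RNA pooled from 3 mice. By the labels CD8+ T-cells were enriched from the leukemic spleens, and CD3+ pan-T-cells from the wild-type ones. Genotype and cell selection therefore cannot be told apart in any comparison with wild type. Neither the labels nor the methods used here tell whether a leukemia array stands for a single mouse, and the p-values cover the spread of the arrays, which may be technical.

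Values are log2 intensities after quantile normalization, and differences are given on the same log2 scale. A gene was called if its limma p-value, adjusted over all 19937 genes by Benjamini-Hochberg, was under 0.05 and its fold was at least 1.5. One leukemia went against its label. Exponential replicate 4 had a median of 2.88 over 6 CD8 lineage markers, against 8.18 to 8.63 in the other exponential arrays. Its median of 34 cell-cycle genes was 4.91, against 3.22 to 4.01 elsewhere. Values without this array are given beside several exponential results that it moved.

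Markers of other cell types also moved with the groups. The median of 9 myeloid markers was 3.42 in exponential replicate 4 and 2.31 to 2.97 in the other exponential arrays, all above the 2.04 to 2.23 of the wild-type and chronic arrays. Of the 9 markers 8 were higher in the exponential phase than in wild type, 1 of them called. The median of 7 B-cell markers was 3.77, 3.68 and 3.43 in exponential replicates 1, 3 and 5. It was 2.71 and 2.66 in exponential replicates 2 and 4, and 2.30 to 2.94 in the wild-type and chronic arrays. Of 6 erythroid markers 4 were lower in the exponential phase than in wild type, 1 of them called. The median of 6 CD4 lineage markers was 4.19 to 4.59 in wild type, 2.29 to 2.60 in the chronic phase, and 2.43 to 2.61 in the exponential phase apart from 3.70 in replicate 4. All 6 lay below wild type in both phases, with 4 called in the chronic and 0 in the exponential phase. The median of the 6 CD8 lineage markers was 8.35, 6.68 and 6.94 in wild-type replicates 1, 2 and 3, and 7.61 to 8.55 in the chronic arrays. All 6 lay above wild type in the chronic phase, with 1 called, and 4 of 6 in the exponential phase, with 0 called. The part of these cell types in the results was not tested.

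The main observation was that few of these genes met the call threshold, as was so for all genes. Xrcc6, which encodes the Ku70 subunit of the end-joining complex, was the single call. It rose 1.79-fold from wild type over all 8 leukemias in 1 comparison. Its partner Xrcc5 (Ku80) also lay above wild type on every leukemia array but missed the threshold. Atm itself was slightly higher in both phases without a call. The plot of log2 differences shows all 45 genes by pathway.

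**Figure D1:**
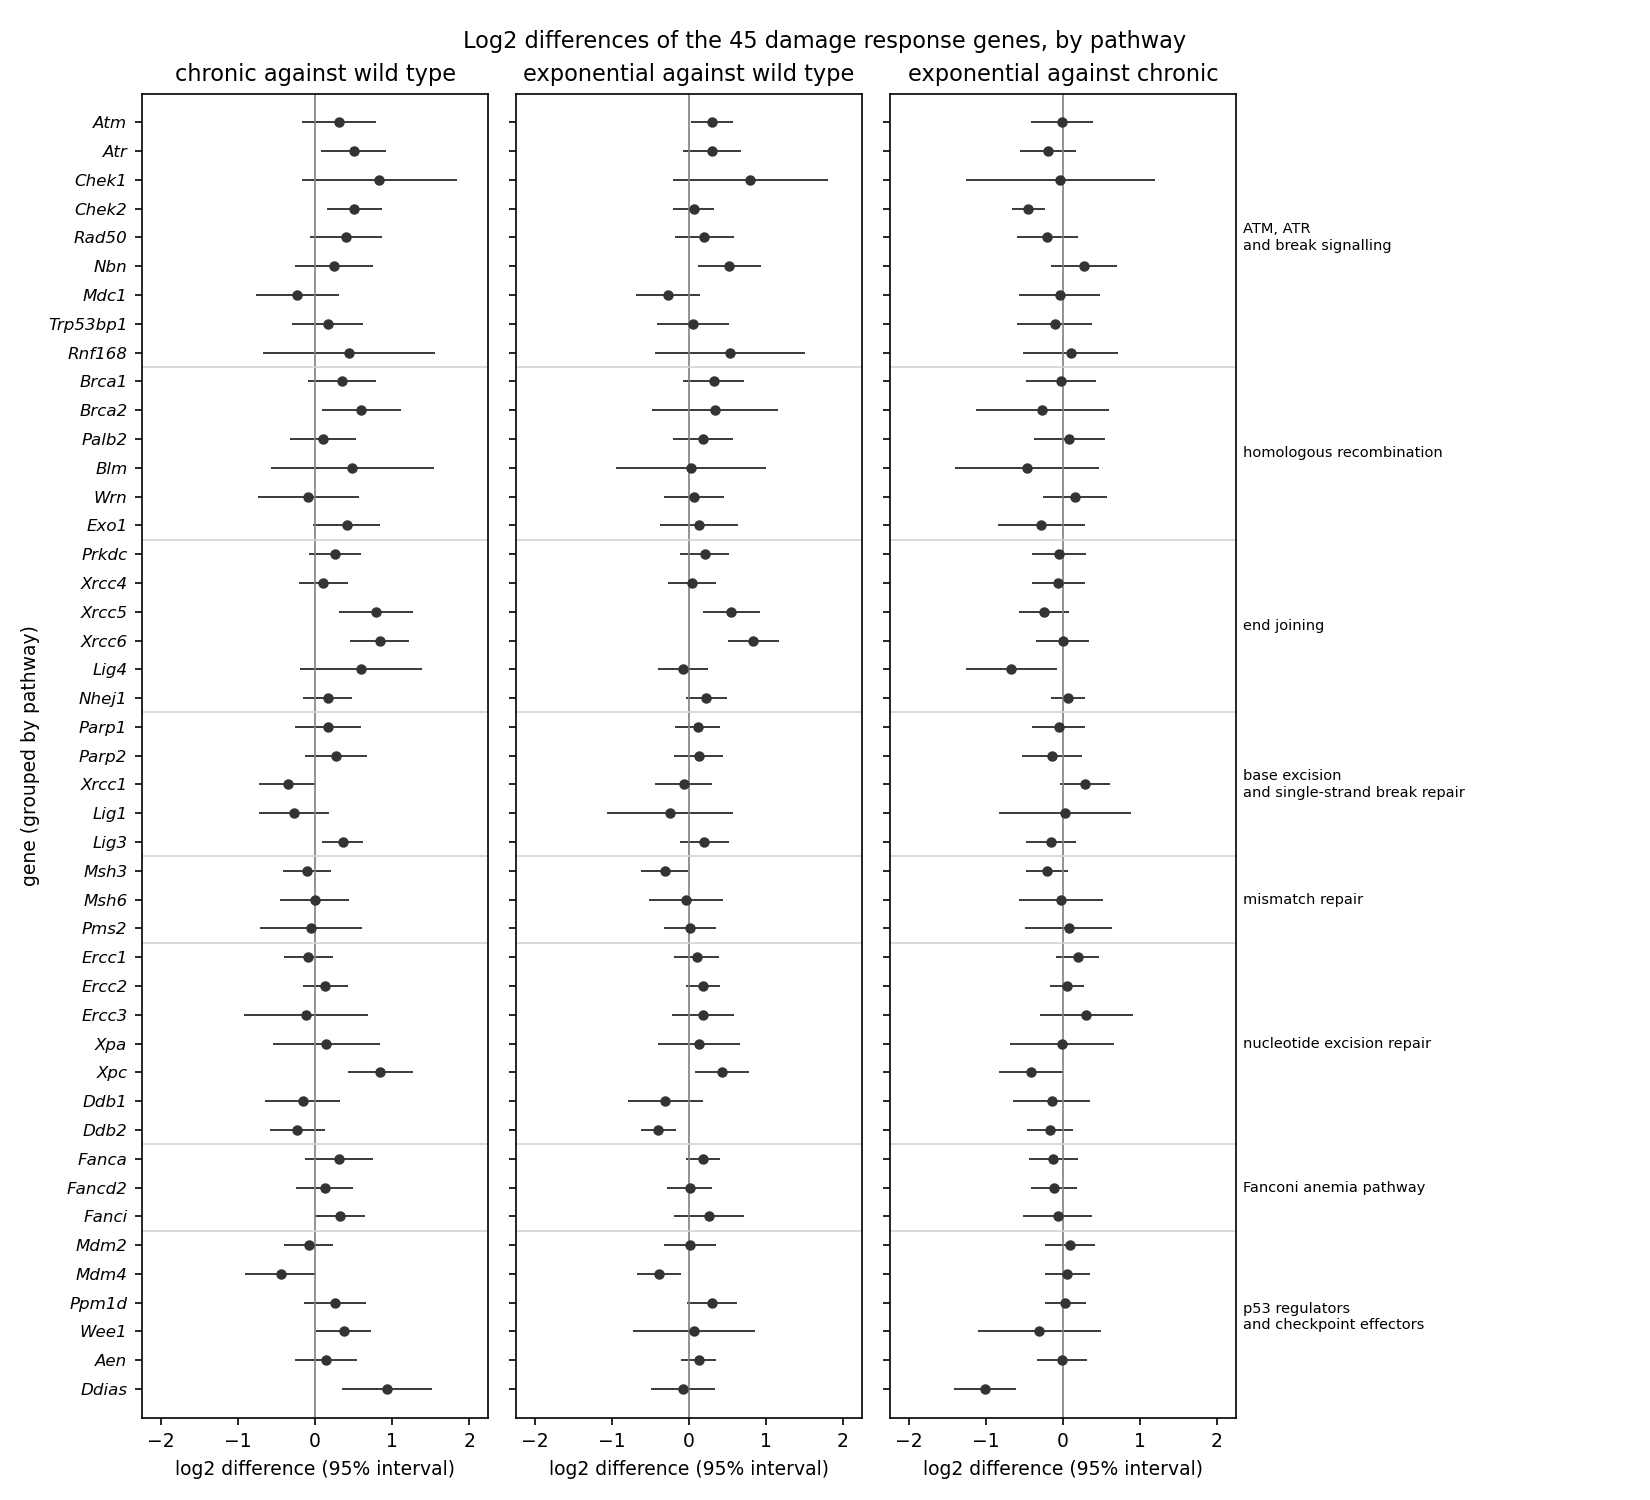
Log2 differences (horizontal axes) with 95% intervals (bars) of the 45 measured damage response genes (vertical axis, grouped by pathway) for each phase against wild type and for exponential against chronic. Most intervals include 0, and Xrcc6 lies at 0.84 in both comparisons with wild type.

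In the chronic phase 0 of the 45 genes were called against wild type, where 0.456% of all genes tested were called. At an unadjusted p under 0.05 there were 10 (22.2%), all of them higher, against 11.2% of all genes in either direction. Of the 45 genes 40 had a mean above the median of all rows. With the dimmest 50% of genes left out, 7 of 40 reached this p, beside 1487 of the brighter 50% of all genes. As shares these lay closer together than 22.2% and 11.2%, which were not matched for signal level. The methods' t-test at an unadjusted p with the fold threshold passed 4 of the 45, beside 3.12% of all genes. The chronic arrays lay above every wild-type array for 7 of the 45, against 8.28% of all genes. They lay below every wild-type array for 1, against 7.52% of all genes. The median log2 difference of the 45 genes was 0.25, with 32 above 0, and that of all genes was -0.0017. Without wild-type replicate 1 the median was 0.11. In these bulk samples, fewer cells that express a gene and less of its RNA per cell cannot be told apart.

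In the exponential phase 0 genes of the 45 were called, where 0.416% of all genes were. The 8 with an unadjusted p under 0.05 (17.8%) were 5 higher and 3 lower, against 9.78% of all genes. With the dimmest 50% of genes left out, 6 of 40 reached this p, beside 1299 of the brighter 50% of all genes. As shares these lay closer together than 17.8% and 9.78%. The methods' t-test at an unadjusted p with the fold threshold passed 1 of the 45, beside 2.39% of all genes. Exponential arrays lay above every wild-type array for 4 of the 45, where the share of all genes was 3.28%, and below for 2, where it was 3.5%. The median difference was 0.12, with 35 genes above 0, and that of all genes was 0.0067. Without exponential replicate 4 Xrcc6 was called in this comparison (adjusted p = 0.0481), and the median was 0.099 with 30 genes above 0. Without wild-type replicate 1 the median was 0.073 with 28 above 0.

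The exponential and chronic phases were compared to ask which of these genes differed within the disease. The phases also differed in tumor content and average age, which cannot be told apart from phase here. Of the 45 genes 0 were called, as were 0% of all genes. An unadjusted p under 0.05 was reached by 4 of them, all lower in the exponential phase, against 6.25% of all genes. With the dimmest 50% of genes left out, 3 of 40 reached it, beside 638 of the brighter 50% of all genes. As shares these lay closer together than those without the filter. By the methods' t-test 1 of the 45 passed at an unadjusted p with the fold threshold, beside 0.617% of all genes. The exponential arrays lay wholly above the chronic arrays for 1 gene (2.3% of all genes) and wholly below for 2 (2.25% of all genes). The median difference of the 45 genes was -0.053, with 14 above 0, and that of all genes was 0.0039. Without exponential replicate 4 the median of the 45 was -0.13, with 15 above 0.

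For all leukemias against wild type the 1 call stands beside 0.722% of all genes. The 8 genes with an unadjusted p under 0.05 stand beside 10.6%. With the dimmest 50% of genes left out, 6 of 40 reached this p, beside 1475 of the brighter 50% of all genes. As shares these lay close together, so the excess without the filter cannot be read as particular to the 45 genes. All 8 leukemia arrays lay above the 3 wild-type arrays for 2 genes (1.67% of all genes) and below for 0 (1.65% of all genes). The comparisons with wild type share their 3 control arrays, so a gene that is high in both phases counts against the same controls in each. The half-width of the 95% interval had a median of 0.43 over the 45 genes for chronic against wild type and of 0.37 for exponential against wild type. Differences smaller than these mostly had unadjusted intervals that included 0. A call, adjusted over all genes, needed more, and the 0.84 of Xrcc6 in each phase against wild type was not called.

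Atm was measured at log2 values of 5.62, 5.75 and 5.48 in the 3 wild-type pools. The chronic leukemias gave 6.14, 6.17 and 5.46, and the exponential leukemias 5.72, 6.17, 5.94, 5.80 and 5.92. Chronic replicate 3 was the lowest of all 11 arrays and the other 2 chronic arrays were among the 3 highest, so the chronic group spanned the range of the series. All exponential arrays but replicate 1 lay above every wild-type pool.

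The group means of Atm were 5.62 ± 0.13 (SD, n = 3) in wild type, 5.93 ± 0.40 (SD, n = 3) in the chronic and 5.91 ± 0.17 (SD, n = 5) in the exponential phase. The difference from wild type was 0.31 (SE 0.20, adjusted p = 0.683) in the chronic and 0.29 (SE 0.12, adjusted p = 0.465) in the exponential phase, or 1.24-fold and 1.23-fold. The unadjusted p of the second was 0.0365. Exponential against chronic gave -0.015, with a 95% interval from -0.41 to 0.38, and all leukemias against wild type gave 0.30 (adjusted p = 0.518). Atm was not called in any alternative setting of any comparison. Without chronic replicate 3 its chronic difference from wild type was 0.54 (adjusted p = 0.177), and without chronic replicate 1 or 2 it was 0.20 (adjusted p = 0.871) or 0.19 (adjusted p = 0.875).

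**Figure D2:**
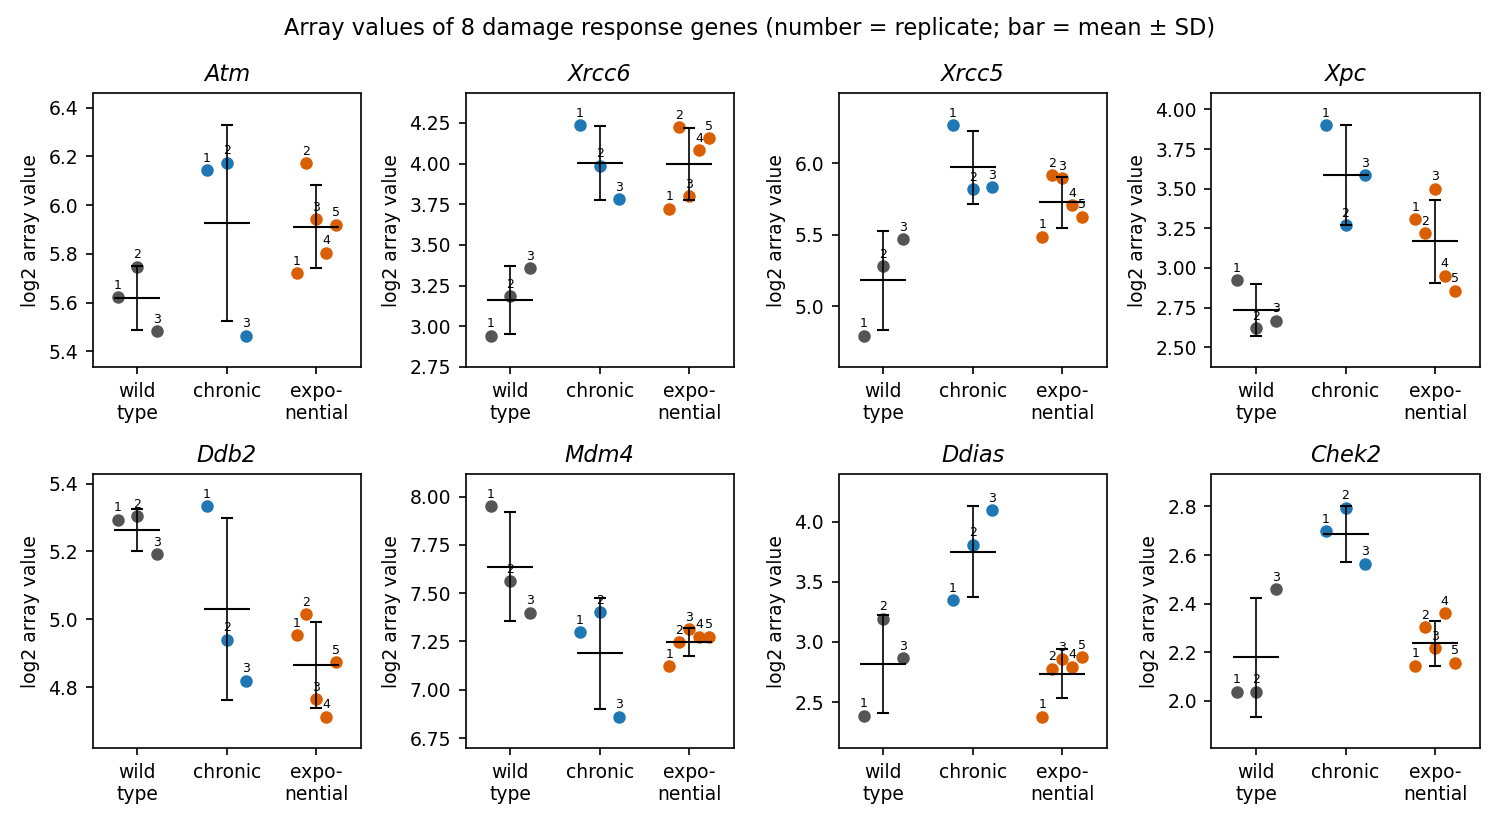
Log2 array values (vertical axes) of 8 damage response genes in wild-type, chronic and exponential arrays (horizontal axes). Points are arrays numbered by replicate, and bars give the mean and SD. Xrcc6 and Xrcc5 are higher on every leukemia array than on every wild-type array, and Ddias and Chek2 are higher on every chronic array than on every exponential array.

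Among the 9 measured genes of break signalling 8 lay above wild type in each phase and 0 were called. Atr, the replication-stress kinase, had values of 5.78, 5.65 and 5.34 in the chronic arrays against 5.09, 5.36 and 4.82 in wild type. The groups touched, since chronic replicate 3 lay just below wild-type replicate 2, and the difference was 0.50 (SE 0.18, adjusted p = 0.349). In the exponential phase Atr ranged from 5.16 to 5.78.

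Chek2, the effector kinase downstream of ATM, separated the phases. Its chronic values were 2.70, 2.79 and 2.56, and its exponential values 2.15, 2.30, 2.22, 2.36 and 2.16. Wild type gave 2.04, 2.04 and 2.46, so the chronic arrays lay above all others. These values lie around the median of all rows (2.30), and the background level is unknown. The exponential difference from chronic was -0.45 (SE 0.10) at an unadjusted p of 0.00121, which became an adjusted p = 0.637 over all genes. Against wild type the chronic difference was 0.51 (SE 0.15, adjusted p = 0.261).

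Nbn, a subunit of the complex that brings ATM to breaks, had its higher mean in the exponential phase, but the phases overlapped. The exponential difference from chronic was 0.28, and 0.17 (adjusted p = 0.887) without exponential replicate 4. The exponential values of 5.51, 5.35, 5.67, 6.06 and 5.52 all lay above the wild-type values of 4.75, 5.30 and 5.26, with a difference of 0.52 (SE 0.18, adjusted p = 0.350). Chronic values were 5.45, 4.96 and 5.63 and overlapped wild type. Rad50, of the same complex, differed by 0.40 in the chronic and 0.20 in the exponential phase. Mdc1, the adaptor that binds phosphorylated H2AX, was the one gene of this group below wild type in both phases (-0.23 and -0.28).

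Chek1, the effector kinase of ATR, had the widest spread of the 45 genes among the leukemias. It reached 5.94 in exponential replicate 4 and 5.46 in chronic replicate 2, and lay between 3.60 and 4.35 in the other 6 leukemias. Wild type gave 3.20, 3.75 and 3.82. The differences of 0.83 (SE 0.43, adjusted p = 0.561) in the chronic and 0.80 (SE 0.45, adjusted p = 0.645) in the exponential phase thus came with SDs of 0.95 and 0.90. Without exponential replicate 4 the exponential difference was 0.41 (adjusted p = 0.457). The difference between the phases was -0.036, and -0.42 (adjusted p = 0.865) without that array. Rnf168, a ubiquitin ligase acting downstream of RNF8 and named after its values were seen, was 3.87 in wild-type replicate 1 and 5.04 to 6.33 on the other 10 arrays.

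Non-homologous end joining rejoins broken ends directly. The Ku70-Ku80 dimer binds the ends, recruits the kinase encoded by Prkdc, and ligation is done by LIG4 with XRCC4 and the factor encoded by Nhej1. All 6 measured genes lay above wild type in the chronic phase, with a median difference of 0.43, and 5 of 6 did in the exponential phase, with a median of 0.21.

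Xrcc6 had log2 values of 2.94, 3.18 and 3.36 in wild type. The chronic arrays gave 4.24, 3.99 and 3.78, and the exponential arrays 3.72, 4.22, 3.80, 4.08 and 4.16. The lowest leukemia lay above the highest wild-type pool, and the chronic and exponential values were interleaved.

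The mean of Xrcc6 was 3.16 ± 0.21 (SD, n = 3) in wild type, and 4.00 ± 0.21 (SD, n = 8) over all leukemias. It rose by 0.84 (SE 0.14, 95% interval 0.54 to 1.13, adjusted p = 0.0133). The call was lost without wild-type replicate 1 (0.73, adjusted p = 0.100) or wild-type replicate 2 (0.85, adjusted p = 0.0501), and over the 22 alternative settings it was kept in 19. Each phase alone gave the same size of difference without a call, 0.84 (adjusted p = 0.0975) for chronic and 0.84 (adjusted p = 0.0558) for exponential. Between the phases the difference was -0.0045, with a 95% interval from -0.35 to 0.34.

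Xrcc5 encodes the other subunit of the dimer. Wild type gave 4.79, 5.28 and 5.47, the chronic arrays 6.27, 5.82 and 5.83, and the exponential arrays 5.49, 5.92, 5.89, 5.71 and 5.63. Every leukemia lay above every wild-type pool, by little for exponential replicate 1. The difference was 0.64 (SE 0.16, adjusted p = 0.125) for all leukemias, 0.79 (adjusted p = 0.196) for chronic and 0.55 (adjusted p = 0.260) for exponential, none of them called. Without wild-type replicate 1, which was the lowest, the difference of all leukemias was 0.45 (adjusted p = 0.553).

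The other end-joining genes differed less. Prkdc differed from wild type by 0.26 in the chronic and 0.20 in the exponential phase, Xrcc4 by 0.11 and 0.043, and Nhej1 by 0.16 and 0.23, with adjusted p of at least 0.606. Lig4 was 4.80, 4.27 and 5.68 in the chronic arrays and 4.39, 4.04, 4.30, 4.24 and 4.26 in the exponential arrays. Its difference between the phases of -0.67 (SE 0.26, adjusted p = 0.790) was -0.29 without chronic replicate 3.

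The sequences before the start sites of Atm, as the gene at the centre of the pathway, and of both Ku genes, as the pair that lay higher on every leukemia array, were read from RefSeq (GRCm38.p6). Each runs over the 200 bases before the annotated start, 5′ to 3′ on the gene's strand, and capitals mark matches to a CCAAT box or an E2F motif on either strand.
Atm (chr9:53536672-53536871, minus strand): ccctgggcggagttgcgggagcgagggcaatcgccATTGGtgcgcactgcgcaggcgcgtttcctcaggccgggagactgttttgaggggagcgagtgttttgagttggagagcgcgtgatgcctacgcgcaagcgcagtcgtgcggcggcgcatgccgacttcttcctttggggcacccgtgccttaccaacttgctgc
Xrcc5 (chr1:72307221-72307420, plus strand): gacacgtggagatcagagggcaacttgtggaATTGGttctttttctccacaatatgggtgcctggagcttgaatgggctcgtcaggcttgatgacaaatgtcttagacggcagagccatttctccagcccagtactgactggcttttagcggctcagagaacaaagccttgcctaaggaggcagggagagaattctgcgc
Xrcc6 (chr15:82016169-82016368, plus strand): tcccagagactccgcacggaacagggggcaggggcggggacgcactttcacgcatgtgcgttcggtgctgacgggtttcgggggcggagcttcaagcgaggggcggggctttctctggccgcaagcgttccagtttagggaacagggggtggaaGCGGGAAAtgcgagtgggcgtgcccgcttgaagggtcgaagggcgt

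The Atm stretch holds a CCAAT box in reverse, beginning 165 bases before the start site, and the Xrcc5 stretch holds one beginning 169 bases before it. The Xrcc6 stretch holds an E2F motif in reverse beginning 46 bases before the start site. GC content was 64.5% for Atm, 51.5% for Xrcc5 and 66% for Xrcc6.

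E2F factors drive genes of S-phase, and CCAAT boxes and the cell-cycle homology region (CHR) are common in genes of mitosis. RefSeq windows of 300 bases, 250 before to 50 after the start, were found for 35 of the 45 measured genes, and not for Nbn, Exo1, Xpc, Ercc3, Fancd2, Wrn, Rad50, Ddb2, Wee1 and Prkdc. An E2F motif (TTTCCCGC, TTTCGCGC, TTTGCCGC or TTTGGCGC on either strand) was in a window of 7 of the 35 genes, namely Brca2, Chek2, Lig1, Mdc1, Msh3, Msh6 and Xrcc6. By promoter this was 17.5% of 40 windows, where 2.26% of all 32851 windows and 25.8% of the 31 windows of cell-cycle genes held one. CCAAT, on either strand, was in 47.5% of the 40 windows against 37.4% of all. It was in windows of both Ku genes, for Xrcc6 outside the printed bases. The CHR letters TTTGAA were in 2.5% against 17.9%. None of these motifs contains another. A match describes the letters and not a bound site, and no match says nothing of the factor.

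Homologous recombination copies the lost sequence from the sister chromatid, and its genes are mostly expressed in S- and G2-phase. None of its 6 measured genes was called. Brca2, a mediator of recombination, was 2.93, 3.59 and 3.66 in the chronic arrays, 2.45, 3.36, 2.78, 4.28 and 2.75 in the exponential arrays, and 2.51, 2.97 and 2.89 in wild type. Chronic replicate 1 lay within the wild-type range, and exponential replicate 4 was the highest of all arrays. The chronic difference was 0.60 (SE 0.22, adjusted p = 0.361) and the exponential one 0.33 (SE 0.36, adjusted p = 0.851), which was 0.045 (adjusted p = 0.974) without replicate 4.

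Brca1, which directs resection and recombination, differed by 0.35 (adjusted p = 0.595) in the chronic and 0.32 (adjusted p = 0.638) in the exponential phase. It reached 3.41 in exponential replicate 4 and 3.22 in chronic replicate 3, with 2.40 to 2.76 in wild type, and without exponential replicate 4 the exponential difference was 0.19. Exo1, the resection nuclease, was 2.12, 2.70 and 2.72 in the chronic arrays, and among the exponential arrays it was high in replicates 2 and 4 (2.58 and 2.80) and between 1.84 and 2.08 in the other 3. Blm, a helicase that dissolves recombination intermediates, was lowest in wild-type replicate 1 (2.42) and highest in exponential replicate 4 (4.58) and chronic replicate 2 (4.47). Palb2, the bridge between BRCA1 and BRCA2, and Wrn, the Werner helicase, differed from wild type by -0.089 to 0.18.

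The 3 measured Fanconi anemia genes repair crosslinks between DNA strands. Fanci, which with FANCD2 forms the ubiquitinated clamp, was 2.55, 2.63 and 2.81 in the chronic arrays, just above the 2.16, 2.50 and 2.36 of wild type (difference 0.32, SE 0.14, adjusted p = 0.441). Its exponential values ran from 2.22 to 3.03 and overlapped wild type. Fanca, of the core complex, differed by 0.31 in the chronic and 0.18 in the exponential phase, and Fancd2 by 0.12 and 0.0073, with adjusted p of at least 0.623.

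A list of 11 of the 45 genes holds those tied to replication or S-phase (Brca1, Brca2, Chek1, Blm, Exo1, Fanca, Fancd2, Fanci, Lig1, Msh6 and Ddias). Their median on each array was 2.40, 2.97 and 2.87 in wild type, 2.93, 3.59 and 3.66 in the chronic phase, and 2.47, 2.88, 2.78, 3.41 and 2.77 in the exponential phase. The same 3 leukemias, chronic replicates 2 and 3 and exponential replicate 4, were highest for the median of 34 cell-cycle genes, at 3.99, 4.01 and 4.91 against 3.22 to 3.54 on the other 8 arrays. No gene is in both lists. Against wild type 9 of the 11 were above 0 in the chronic phase (median 0.35) and 8 of 11 in the exponential phase (median 0.13), with 0 called. Without exponential replicate 4 the exponential count was 5 of 11 and the median turned to -0.013. Blm, Exo1 and Fancd2, whose exponential differences were 0.022, 0.13 and 0.0073, were then at -0.28, -0.013 and -0.063. For exponential against chronic 1 of the 11 was above 0 (median -0.11), and 0 of 11 (median -0.30) without exponential replicate 4. The part of proliferation in these differences was not tested.

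**Figure D3:**
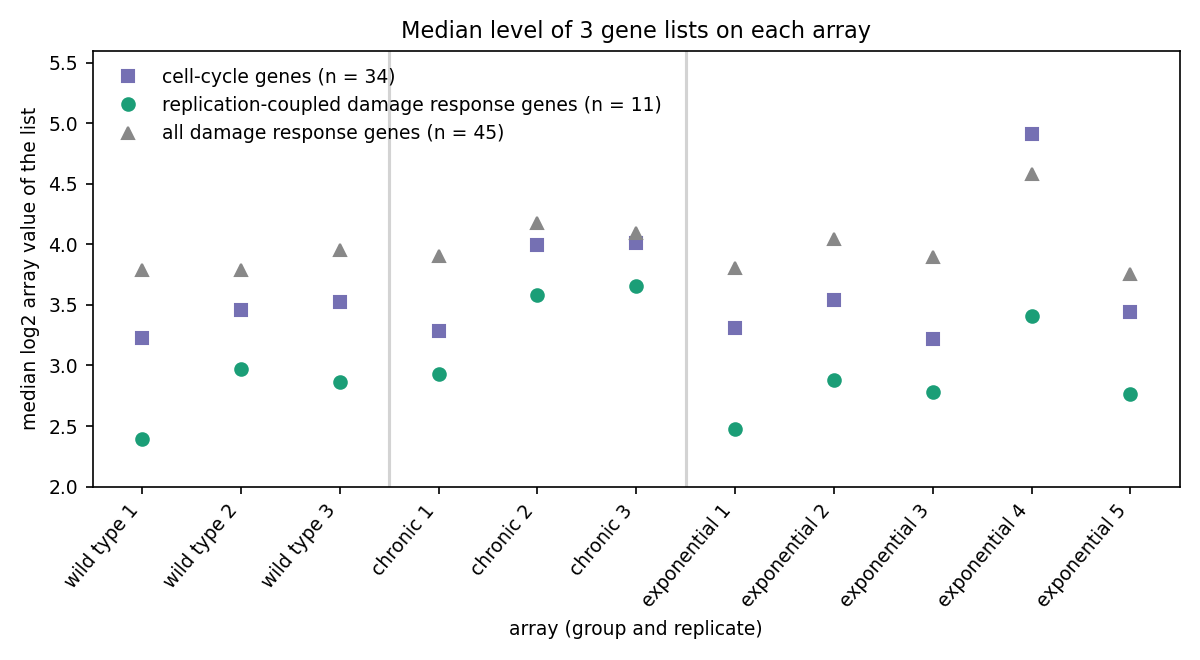
Median log2 array value (vertical axis) of 34 cell-cycle genes, 11 replication-coupled damage response genes and all 45 damage response genes on each of the 11 arrays (horizontal axis). Chronic replicates 2 and 3 and exponential replicate 4 are highest for the cell-cycle and the replication-coupled genes.

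Array by array, exponential replicate 4 held the highest value of the series for 16 of the 45 genes (35.6%), and for 8 of the 11 replication-coupled genes. Over all genes this array was highest for 11.4%. Wild-type replicate 1 held the lowest value for 11 of the 45 (24.4%), and for 5 of the 11, against 12.5% of all genes. Chronic replicate 1, whose cell-cycle median of 3.28 lay within the wild-type range, was highest for 8 genes, and for 0 of the replication-coupled ones. Without wild-type replicate 1 the count above 0 over all leukemias was 29 of 45 in place of 35.

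**Figure D4:**
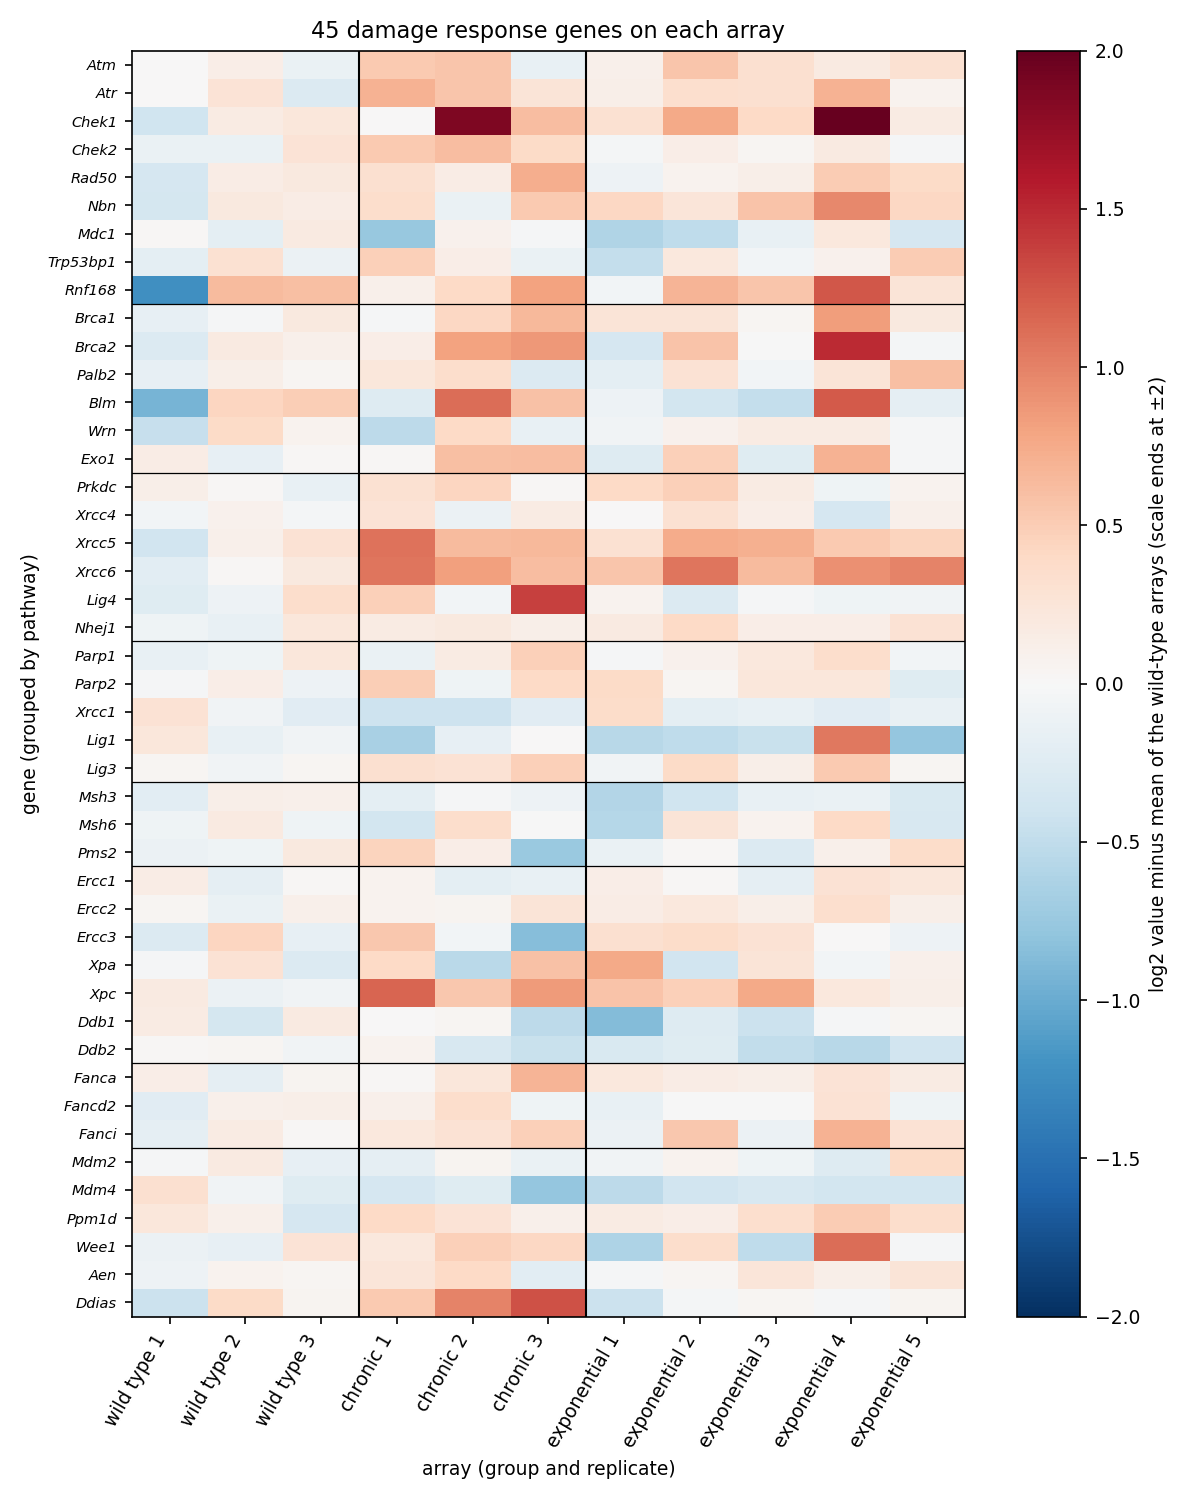
Log2 value minus the mean of the wild-type arrays (colour, scale ending at 2 in either direction) for the 45 damage response genes (rows, by pathway) on the 11 arrays (columns). Wild-type replicate 1 is low for Rnf168 and Blm, exponential replicate 4 is high for Chek1, Brca2, Blm and Lig1, and both Ku genes are above 0 on all leukemia arrays.

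The spread between arrays was wider at the median of these genes than at the median of all genes. The comparison was not matched for signal level, and 40 of the 45 had a mean above the median of all rows. The median SD over the 45 genes was 0.20 in wild type, 0.31 in the chronic and 0.24 in the exponential phase, against 0.16, 0.17 and 0.17 over all genes. It was widest for Rnf168 in wild type (1.07) and for Chek1 in both phases.

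Base excision and single-strand break repair gave 0 calls among 5 genes. Lig3, the ligase that acts with XRCC1, was 2.59, 2.56 and 2.75 in the chronic arrays, all above the 2.32, 2.20 and 2.32 of wild type, with a difference of 0.36 (SE 0.12, adjusted p = 0.302). Xrcc1, its scaffold, was lower in the chronic arrays (3.06, 3.06 and 3.25) than in wild type (3.78, 3.41 and 3.26) and than on every exponential array (3.26 to 3.84). The groups did not overlap, but the margin to the nearest array was narrow on both sides, and the differences of -0.36 (adjusted p = 0.468) from wild type and 0.29 (adjusted p = 0.817) for exponential against chronic were not called.

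Lig1, the replicative ligase, was 5.40 in exponential replicate 4 and 3.57 to 3.90 in the other 4 exponential arrays, which all lay below the wild-type values of 4.56, 4.19 and 4.27. Its exponential difference from wild type was -0.25 with all arrays and -0.57 (adjusted p = 0.0862) without replicate 4. The exponential difference from chronic was 0.025 with all arrays and -0.30 (adjusted p = 0.765) without replicate 4. Parp1 and Parp2, the sensors of strand breaks, differed from wild type by 0.17 and 0.27 in the chronic and 0.11 and 0.12 in the exponential phase.

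Mismatch repair corrects replication errors, and its 3 measured genes were the group closest to wild type in the chronic phase (-0.11 to -0.0075). Msh3, which recognises insertion loops, was 4.50, 4.69, 4.93, 4.96 and 4.78 in the exponential arrays and 4.87, 5.20 and 5.19 in wild type. The difference was -0.32 (SE 0.13, adjusted p = 0.481), and exponential replicates 3 and 4 lay above wild-type replicate 1. Msh6 and Pms2 differed by -0.056 to 0.018 in both phases, and their 95% intervals reached 0.44 and 0.61 in the chronic phase.

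Nucleotide excision repair removes bulky lesions such as those left by ultraviolet light, and 0 of its 7 measured genes were called. Its damage sensors Xpc and Ddb2 had differences of opposite sign. Xpc was 3.90, 3.27 and 3.59 in the chronic arrays, all above the wild-type values of 2.92, 2.62 and 2.67, and 3.31, 3.22, 3.50, 2.95 and 2.86 in the exponential arrays, which overlapped wild type at replicate 5. The chronic difference was 0.85 (SE 0.18, 1.80-fold, adjusted p = 0.117) and the exponential one 0.43 (SE 0.16, adjusted p = 0.381).

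Ddb2 was lower than wild type on every exponential array, at 4.95, 5.02, 4.76, 4.71 and 4.87 against 5.29, 5.30 and 5.19. The difference of -0.40 (SE 0.10, 1.32-fold, unadjusted p = 0.00295) had an adjusted p = 0.167. Chronic replicate 1 (5.33) was above the wild-type arrays and the other chronic arrays (4.94 and 4.82) were below them. Ddb1, the partner of DDB2, differed by -0.16 in the chronic and -0.31 in the exponential phase, and Ercc1, Ercc2, Ercc3 and Xpa, which act later in the pathway, by -0.12 to 0.18, with adjusted p of at least 0.620. Ercc2, which encodes a helicase of the repair and transcription factor TFIIH, lay just above wild type on every exponential array (2.17 to 2.39 against 1.92 to 2.16). Its mean over all arrays was below the median of all rows (2.30).

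The last group holds regulators and targets of p53, and checkpoint effectors. Mdm4, which restrains p53, was 7.95, 7.56 and 7.40 in wild type and 7.12, 7.25, 7.31, 7.28 and 7.28 in the exponential arrays, with no overlap. The chronic arrays gave 7.30, 7.40 and 6.86 and touched wild-type replicate 3. Differences were -0.39 (SE 0.13, adjusted p = 0.309) for exponential and -0.45 (SE 0.20, adjusted p = 0.463) for chronic, and without wild-type replicate 1 that of all leukemias moved from -0.41 to -0.26. Mdm2, the ubiquitin ligase that degrades p53, differed by -0.085 and 0.0089.

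Ddias, an anti-apoptotic factor named for its induction by DNA damage, showed the widest gap between the phases. The chronic values of 3.35, 3.81 and 4.10 lay above every exponential value (2.38, 2.78, 2.86, 2.79 and 2.88) and every wild-type value (2.39, 3.19 and 2.87). Exponential against chronic was -1.01 (SE 0.18, 95% interval -1.42 to -0.61), or 2.02-fold, at an unadjusted p of 0.000287 and an adjusted p = 0.477. Chronic against wild type was 0.93 (SE 0.25, adjusted p = 0.209). Exponential replicate 4, the array with the highest cell-cycle median, was 2.79 for Ddias.

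Ppm1d, the phosphatase that reverses ATM signalling, was 5.34, 5.21 and 5.04 in the chronic and 5.06 to 5.44 in the exponential arrays, and 5.16, 5.03 and 4.60 in wild type. Over all leukemias it differed by 0.28 (SE 0.13, adjusted p = 0.452). Wee1, the kinase that holds cells before mitosis, was 3.89, 4.16 and 4.09 in the chronic arrays and spread from 3.06 to 4.80 in the exponential arrays, with 3.51 to 3.95 in wild type. Its exponential difference was 0.064, and -0.20 without replicate 4. Aen, a p53-induced nuclease, differed by 0.14 and 0.12.

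Beyond the 45 genes, 122 further genes of the same 8 pathways were measured. Of these 1 was called in each comparison with wild type and 0 in exponential against chronic. This is 0.82% of the 122, beside 0.456%, 0.416% and 0.722% of all genes in chronic, exponential and all leukemias against wild type. The median difference of the 122 was 0.10 in the chronic phase (81 above 0), 0.067 in the exponential phase (72 above 0) and -0.056 between the phases (48 above 0). The 24 further signalling genes had medians of 0.20 and 0.15 in the chronic and exponential phases, the 20 of homologous recombination 0.17 and 0.10, the 18 of nucleotide excision repair 0.13 and 0.11, and the 21 of the p53 group -0.094 and -0.10. The 18 of base excision repair had medians of 0.071 and 0.086, the 14 of the Fanconi anemia pathway 0.084 and -0.028, the 5 of end joining 0.065 and -0.0030, and the 2 of mismatch repair 0.33 and 0.073.

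The called gene was Trp53inp1, a p53 target that promotes cell death and autophagy. It was 9.45, 9.44 and 9.76 in wild type, 7.64, 8.06 and 8.45 in the chronic arrays, and 7.84, 7.69, 7.70, 7.20 and 7.61 in the exponential arrays. Every leukemia lay below every wild-type pool by more than the range of the 3 pools. It fell 2.83-fold (adjusted p = 0.0394, log2 SE 0.21) in the chronic and 3.85-fold (adjusted p = 0.00131, log2 SE 0.15) in the exponential phase. In the exponential phase the call was kept whichever array was left out. In the chronic phase it was lost in 5 of 6 such settings, namely without chronic replicate 1 or 2 or any one of the wild-type replicates, at adjusted p from 0.0616 to 0.134.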

How the data were processed

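RNA was hybridized to an Affymetrix whole-transcript mouse array. The authors used RMA background correction and quantile normalization, and deposited log2 values. Detection calls were not used here, so the background level is unknown. Precision is limited by the number of arrays. Of 34760 rows, 21640 carried 1 symbol in the platform annotation, which left 19937 genes. Of the 45 measured members 5 had a mean below the median of all rows (2.30 on the log2 scale, shared by all arrays). They were Ercc2, Exo1, Fancd2, Nhej1 and Palb2.

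Each comparison was fitted on the arrays of its own groups with limma 3.58.1 (lmFit and eBayes) in R 4.3.3. Values were tabulated and plotted with Python 3.11.15, pandas 2.3.3 and matplotlib 3.10.9. Groups came from the sample titles. Replicate numbers correlated at -0.037 to 0.18 between groups and were not taken as pairs. Members, pathway lists, marker lists and motifs were chosen with earlier results of these data known. A member was described in full if called, or if it was among the 2 smallest unadjusted p-values of its pathway in a comparison of groups. On simulated data of 19937 genes 57% of 2-fold and 94% of 4-fold changes were called for chronic against wild type. The shares were 77% and 97% for exponential against wild type, 73% and 98% for exponential against chronic, and 86% and 96% for all leukemias. The simulation gave 183 calls for exponential against chronic, where the measured arrays gave 0. Members spread more widely than all genes, with a median SD of 0.31 against 0.17 in the chronic phase. The simulated shares therefore cannot be read as the chance of a call for a member. Alternatives were 1 fit over all groups, a replicate block, filters on dim rows, median centring, cyclic loess, robust eBayes with a trend, array weights, the mean of a gene's rows, the methods' t-test, dropping the fold threshold, and leaving out each array.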

Additional observations from a re-analysis of the deposited data

Results flagged for a closer look

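Within the 5 exponential arrays, 6 of the 45 genes had an extreme array whose gap to its nearest neighbour exceeded Dixon's critical value of 0.71 of the range. For a single gene with normally distributed values chance gives about 1 in 20. The share over all genes was not taken, so the count cannot be read as particular to the 45 genes. In 4 of the 6 flagged genes the extreme was the highest value in exponential replicate 4, with Chek1 at 5.94, Brca1 at 3.41, Blm at 4.58 and Lig1 at 5.40. This is the array whose CD8 lineage median was 2.88 and whose cell-cycle median was 4.91. The others were Xrcc1, highest in exponential replicate 1 at 3.84, and Ddias, lowest in exponential replicate 1 at 2.38.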

How the results depend on the processing

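No member was called in chronic against wild type or exponential against chronic with limma under any alternative. For all leukemias the count of called members was 1, 2 with the replicate block (Xrcc6 and Xpc, adjusted p = 0.0453 and 0.0431), 0 by the methods' t-test with Benjamini-Hochberg adjustment, 3 with its unadjusted p, and 0 to 1 with an array left out. For exponential against wild type it was 0, and 1 (Xrcc6) in 1 fit over all 3 groups, with array weights, with the unadjusted t-test and without exponential replicate 4, so 0 to 1 with an array left out. The unadjusted t-test gave 4 for chronic against wild type and 1 for exponential against chronic, and both counts were 0 with any array left out from limma.

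Calls over all genes were 91 for chronic against wild type (8 to 108 with an array left out, 154 with trend and robust estimation, 0 by the t-test adjusted and 623 unadjusted), 83 for exponential (16 to 221, 139 with the replicate block, 4 and 477), 0 between phases (0 to 2, 123 unadjusted) and 144 for all leukemias (50 to 273, 264 with the replicate block, 46 and 543). The cause of these shifts was not tested.

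The median of the members ran from 0.11 to 0.29 with an array left out for chronic against wild type, the lowest without wild-type replicate 1. Without that array it was 0.073 in place of 0.12 for exponential and 0.11 in place of 0.18 for all leukemias. Atm kept its sign against wild type in all alternatives. Between phases it was -0.015, 0.020 with cyclic loess, 0.018 with the replicate block and -0.25 to 0.11 with an array left out. With the replicate block Xpc was newly called for all leukemias, and no other member's call changed. Replicate numbers are only shared numbers here.

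Differences under about 0.4 were mostly beyond the precision of these arrays, and larger ones were mostly not called either.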
